A study of Mus musculus with 6 samples.

Results

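Transcript levels of 9 potassium channel genes were compared between hearts of young and old mice. The genes were taken by symbol from the deposited gene tables and were the voltage-gated channel genes Kcna5, Kcnd2, Kcnd3, Kcnq1 and Kcnh2, the partner subunit genes Kcnip2 and Kcne1, and the two-pore channel genes Kcnk1 and Kcnk3. All 9 were among the 18005 listed symbols, and all 9 passed the filter on low counts that left 12893 genes for testing. RNA was sequenced from 3 young and 3 old mice, all labelled WT with no treatment, and the series title refers to age-related pathological cardiac hypertrophy. Ages in months, strain, sex and the part of the heart are not given in the labels. Nothing in the labels says how the numbered mice were housed or collected. The p-values set the difference between the groups against the spread among the 3 samples within each group. Any difference in housing or collection between the groups cannot be told apart from age.

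Potassium channels end the cardiac action potential by letting potassium leave the cell. Voltage-gated channels open on depolarization: Kcnd2 and Kcnd3 with Kcnip2 carry the fast transient outward current, Kcna5 an ultrarapid delayed current, Kcnh2 the rapid delayed rectifier and Kcnq1 with Kcne1 the slow delayed rectifier. Two-pore channels carry background currents that help to set the resting potential. Mouse ventricle relies mainly on the transient outward and ultrarapid currents for its short action potential, and the delayed rectifiers that matter in large mammals play a small part in the adult mouse.

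The libraries held 11295280 to 12514005 counts each, and 1 count equalled about 0.084 CPM (TMM-scaled counts relative to the library total). The 8 cardiomyocyte markers summed to 41522 to 44828 CPM in young and 51499 to 57415 CPM in old hearts. Of these 8, Actc1 (2.11-fold) and Tnni3 (1.27-fold) rose, Ttn fell (0.705 times the young level) and 5 were not called, and their part in the channel results was not tested. Of the 8 atrial markers, Myl7 was at no more than 1.42 CPM, Bmp10 at 0 in 5 of the 6 libraries and Sln at no more than 0.351 CPM. Other members of that list were higher, with Nppa at 335 to 409 CPM in young and 49.2 to 113 CPM in old hearts and Stard10 at 31.0 to 52.5 CPM over all libraries. Of the 5 ventricular markers, 0 rose and 3 fell: Irx4 (0.774 times the young level), Hey2 (0.651) and Mylk3 (0.668). Myl2, at 12688 CPM or more, and Myl3 were not called. The ventricular sums overlapped, at 21436 to 25799 CPM in young and 20744 to 24351 CPM in old hearts. The part of these lists in the channel results was not tested. In bulk tissue, fewer cells of a type and less RNA per cell cannot be told apart.

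Old hearts had more Kcnk1, Kcna5 and Kcnh2 transcript and less Kcne1, while Kcnd2, Kcnd3, Kcnip2, Kcnq1 and Kcnk3 did not pass the test. Of the 9 genes, 3 rose and 1 fell at an adjusted p under 0.05 in edgeR's quasi-likelihood test, against 22.0% of all genes tested that were called in either direction (11.4% higher and 10.6% lower). The median log2 fold change of the 9 genes, old over young, was 0.09, against -0.01 over all genes tested. The CPM values of the groups did not overlap for those 4 genes, and they overlapped for the other 5. Over all genes tested, the groups did not overlap for 39.9%. The same 3 rises and 1 fall were called whichever library was left out. Old 2 was the highest of the 3 old hearts for 8 of the 9 genes, and Kcnd2 was highest in old 3.

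**Figure D1:**
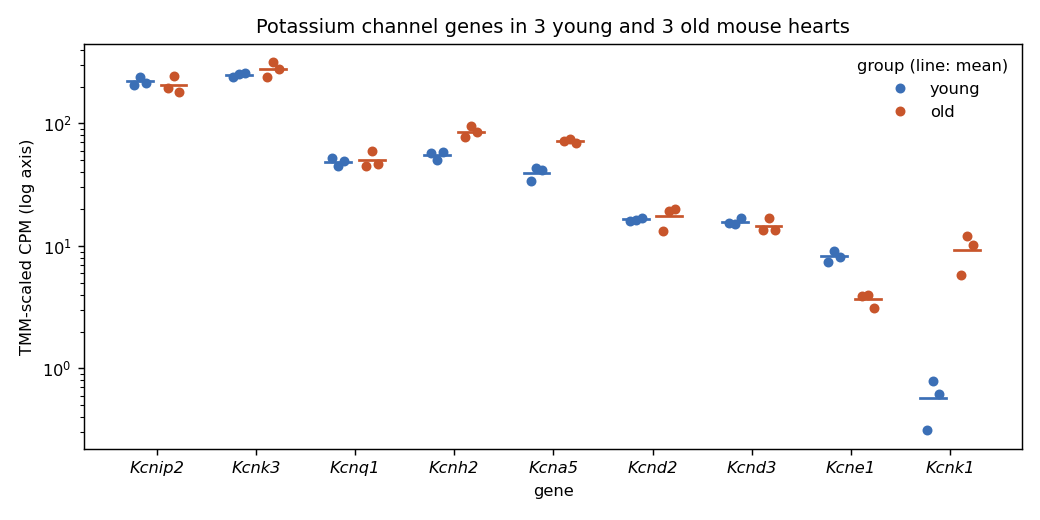
TMM-scaled CPM (log axis) of the 9 potassium channel genes in each library, with 3 young hearts in blue and 3 old hearts in orange and a line at each group's mean. Kcnk1, Kcna5 and Kcnh2 lie higher in every old heart than in any young heart, Kcne1 lies lower, and the groups overlap for the other 5 genes.

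The RefSeq promoter windows of the 3 genes that rose are printed below. Each window covers 250 bases before the annotated start and 50 after it, on the GRCm38.p6 build, and is printed 5′ to 3′ on the gene's strand. Windows were matched by symbol for 6 of the 9 genes, and there was none for Kcne1, the gene that fell, or for Kcnq1 and Kcnk3. The windows are Kcnk1 at chr8:125994852-125995151 on the plus strand, Kcna5 at chr6:126535506-126535805 on the minus strand and Kcnh2 at chr5:24329542-24329841 on the minus strand. Capitals mark matches to the motifs searched:
Kcnk1: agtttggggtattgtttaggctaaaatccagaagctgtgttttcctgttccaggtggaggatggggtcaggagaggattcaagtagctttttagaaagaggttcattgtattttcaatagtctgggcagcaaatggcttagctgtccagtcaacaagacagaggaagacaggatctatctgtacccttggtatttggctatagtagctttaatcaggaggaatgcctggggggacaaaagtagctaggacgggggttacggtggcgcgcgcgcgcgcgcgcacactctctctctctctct
Kcna5: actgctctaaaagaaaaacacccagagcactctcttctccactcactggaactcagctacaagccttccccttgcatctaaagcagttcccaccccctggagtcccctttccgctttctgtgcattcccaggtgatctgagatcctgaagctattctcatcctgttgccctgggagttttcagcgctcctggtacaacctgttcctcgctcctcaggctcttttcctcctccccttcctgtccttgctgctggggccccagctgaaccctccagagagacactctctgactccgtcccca
Kcnh2: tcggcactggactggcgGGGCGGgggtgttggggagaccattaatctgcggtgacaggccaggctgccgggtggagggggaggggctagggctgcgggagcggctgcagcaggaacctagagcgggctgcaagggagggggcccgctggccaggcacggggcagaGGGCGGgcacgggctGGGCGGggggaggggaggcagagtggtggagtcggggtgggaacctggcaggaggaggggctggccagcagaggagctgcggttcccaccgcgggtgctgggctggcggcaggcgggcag

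Both strands were searched for 7 short motifs: the AP-1 element (TGANTCA), the E-box (CACGTG), the core of the cyclic AMP element (TGACG), a heat shock element core (GAANNTTC), a D-box core (TTANNTAA), the TATA box (TATAAA) and the GC box (GGGCGG). These were chosen with the changes of immediate early, heat shock and clock genes in these hearts already known. None of the 7 matched in the windows of Kcnk1 and Kcna5. Kcnh2 held 3 GC boxes, beginning at positions -233, -85 and -70 from the start. The GC box was not particular to rising genes. Among members that were not called, it also matched in Kcnip2, at -87 and -17, and in Kcnd2, at -166, while no motif matched in Kcnd3. Among all 32851 windows of this length, 35.7% held a GC box, 20.8% the cyclic AMP core, 13.6% a TATA box, 7.81% an AP-1 element, 7.86% the heat shock core, 7.15% an E-box and 6% a D-box core. No 2 of these motifs overlapped in the 3 windows. The base composition differed among the rising genes: G and C made up 49% of the Kcnk1 window, 55% of the Kcna5 window and 74.3% of the Kcnh2 window, against a median of 52.7% over all windows. A match is a string of letters and not a measured site, and a missing match concerns this window only.

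Kcnk1 encodes a weakly conducting two-pore channel that is abundant in brain and kidney. It had 4, 9 and 8 counts in young hearts 1 to 3 and 65, 139 and 118 in old hearts 1 to 3, or 0.312, 0.791 and 0.619 CPM against 5.75, 12.0 and 10.2 CPM. Every old heart was well above every young one, and old 1 was the lowest of the old group. On the log2 scale the change was 4.02 ± 0.36 (± is the SE for fold changes throughout, edgeR adjusted p = 2.7e-05), or 16.2-fold. Leaving out a library gave 3.72 to 4.29. The young level rests on 21 counts over 3 libraries, and Kcnk1 passed the filter on low counts through the old hearts alone. With no filter the log2 fold change was again 4.02 (edgeR adjusted p = 1.7e-07), and it was 1.24 on the scale of log2 FPKM plus 1. Kcnk1 is also known from epithelia. The 5 epithelial markers summed to 1.49 to 6.87 CPM in young and 1.73 to 3.81 CPM in old hearts, with Epcam at no more than 0.173 CPM. Only 2 of the 5 passed the filter on low counts, and neither was called. The part of such cells in the Kcnk1 result was not tested.

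Kcnk3 encodes an acid-sensitive two-pore channel that carries a background current in cardiomyocytes. Its CPM was 238, 251 and 259 in young and 240, 315 and 278 in old hearts, so old 1 lay within the young range while old 2 and old 3 lay above it. A log2 fold change of 0.16 ± 0.10 did not pass (edgeR adjusted p = 0.29), and it was 0.06 without old 2 and 0.26 without old 1. Kcnk3 was the most abundant two-pore gene in both groups.

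Kcna5 encodes the pore of the ultrarapid delayed rectifier. It stood at 33.9, 42.9 and 41.9 CPM in young and 72.2, 74.1 and 69.5 CPM in old hearts. The old hearts were close to each other, and the lowest of them exceeded the highest young heart by a wide margin. The log2 fold change was 0.86 ± 0.10 (edgeR adjusted p = 0.00012), or 1.82-fold, and it stayed between 0.75 and 0.92 over the 18 alternative fits.

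Kcnh2 encodes the pore of the rapid delayed rectifier. It had 56.9, 50.2 and 57.9 CPM in young and 77.8, 94.4 and 85.4 CPM in old hearts, with no overlap. Old hearts differed by 0.64 ± 0.10 on the log2 scale (edgeR adjusted p = 0.00076), or 1.56-fold, with a range of 0.53 to 0.72 over the same fits.

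Kcnd2, a pore-forming gene of the fast transient outward current, had 16.1, 16.4 and 16.8 CPM in young and 13.3, 19.2 and 20.0 CPM in old hearts. The young hearts were nearly equal, and the old ones lay on both sides of them. Its log2 fold change was 0.09 ± 0.14 (edgeR adjusted p = 0.67), and it was 0.26 without old 1 and -0.01 without old 3.

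Kcnd3, the other pore gene of that current, had 15.5, 15 and 16.8 CPM in young and 13.5, 16.8 and 13.4 CPM in old hearts. Old 1 and old 3 lay below the young range and old 2 at its top. It differed by -0.12 ± 0.12 on the log2 scale (edgeR adjusted p = 0.51).

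Kcnip2, the calcium-binding partner that brings these pores to the membrane, had 205, 241 and 215 CPM in young and 195, 242 and 180 CPM in old hearts. Old 2 matched the highest young heart and the other old hearts lay below the young range. The log2 fold change of -0.10 ± 0.11 did not pass (edgeR adjusted p = 0.58).

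Kcnq1, the pore of the slow delayed rectifier, had 51.9, 45.2 and 49.5 CPM in young and 45.1, 60.1 and 46.7 CPM in old hearts. Its log2 fold change was 0.05 ± 0.11 (edgeR adjusted p = 0.78), and the sign turned with scaling by library size alone (-0.03) and without old 2 (-0.09).

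Kcne1, the single-span subunit that slows Kcnq1 channels, went the other way from the 3 rising genes. It had 95, 103 and 105 counts in young and 44, 46 and 36 in old hearts, or 7.42, 9.05 and 8.13 CPM against 3.9, 3.97 and 3.12 CPM. The groups were apart, and the old hearts lay close together. The log2 fold change was -1.16 ± 0.17 (edgeR adjusted p = 0.00069), 0.448 times the young level, and it lay between -1.24 and -0.78 over the alternatives.

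Levels can be compared between genes only per length. On the deposited FPKM scale (counts divided by the gene's length and the library total), young hearts had most Kcnip2 (75.7 ± 5.05, SD, n = 3) and Kcnk3 (67.1 ± 2.72). Kcnq1 (14.1 ± 1.21), Kcna5 (13.5 ± 1.52) and Kcnh2 (12.1 ± 1.12) followed, with ranges that overlapped between neighbours. Kcne1 was at 2.63 ± 0.218, Kcnd3 at 1.45 ± 0.0987, Kcnd2 at 0.172 ± 0.00415 and Kcnk1 at 0.108 ± 0.044, each apart from the next. In old hearts Kcnk3 (70.8 ± 8.78) and Kcnip2 (67.0 ± 9.34) overlapped at the top. Kcna5 (23.3 ± 0.372), Kcnh2 (17.9 ± 1.54) and Kcnq1 (13.8 ± 2.04) then followed in an order without overlap. Kcnk1 (1.66 ± 0.562), Kcnd3 (1.26 ± 0.145) and Kcne1 (1.11 ± 0.129) had overlapping neighbours, and Kcnd2 (0.173 ± 0.0366) was last. Kcnk1 thus went from the lowest of the 9 genes in young hearts to above Kcne1 by its mean in old hearts.

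The place of Kcnd2 in this order depends on the length used. Dividing its counts by its FPKM and library total gives a length of 98276 bases, 19.1 times the 5152 bases of its exons in the GENCODE annotation of GRCm38, where the gene spans 514303 bases. For Kcnk1 the corresponding lengths were 5452 and 2235 bases, a ratio of 2.44, and for the other 7 genes the ratio lay between 0.858 and 1.17. The median ratio over 16431 genes was 0.896, and 0.651% of these genes had a ratio over 5. With CPM per kilobase of GENCODE exons, Kcnd2 stood at 3.19 ± 0.069 in young and 3.4 ± 0.713 in the old group (SD, n = 3), above Kcnd3 at 1.64 ± 0.0963 and 1.52 ± 0.2. So Kcnd2 lay below Kcnd3 on the deposited scale and above it on the other, without overlap in young hearts on either. The fold change between groups uses no length. Whether reads from introns entered the Kcnd2 counts was not tested.

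**Figure D2:**
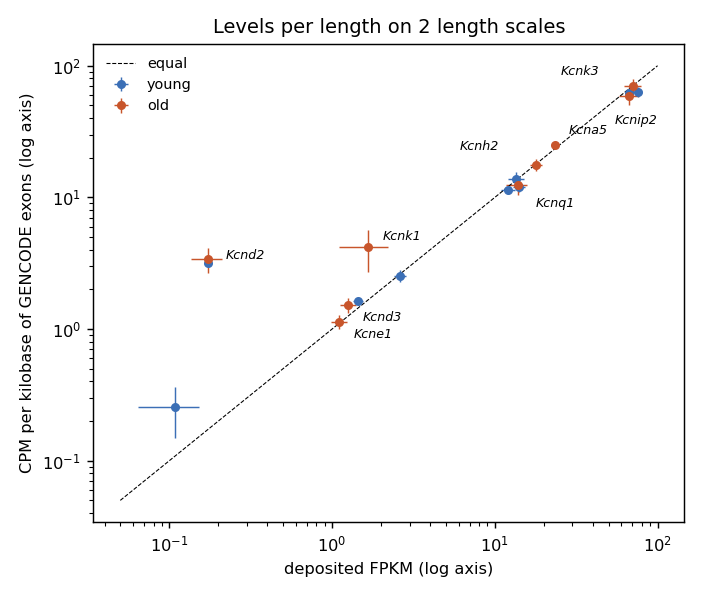
Mean level of each of the 9 genes per length, as deposited FPKM (horizontal, log axis) and as CPM per kilobase of GENCODE exons (vertical, log axis), with SD bars over 3 hearts and a dashed line of equality. Kcnd2 lies far above the line and Kcnk1 above it, and the other 7 genes lie close to it.

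Ratios between partner genes were taken within each library, where library scaling cancels. Kcne1 relative to Kcnq1 was 0.159, 0.222 and 0.182 in young and 0.0962, 0.0735 and 0.0743 in old hearts, a log2 difference of -1.21 without overlap. Kcnk1 relative to Kcnk3 was 0.000919, 0.00221 and 0.00167 in young and 0.0168, 0.0267 and 0.0257 in old hearts, a log2 difference of 3.91. Kcna5 relative to the sum of Kcnd2 and Kcnd3 was 8.35 ± 1.08 in young and 16.3 ± 1.71 in the old group (SD, n = 3), a log2 difference of 0.97. The exact 2-sided permutation p was 0.1 for each of these 3 ratios, the smallest that 3 against 3 allows, and 0.167 after Benjamini-Hochberg adjustment over the 5 ratios compared. These 3 ratios kept their direction whichever library was left out.

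By contrast, the ratio of Kcnip2 to the sum of Kcnd2 and Kcnd3 overlapped, at 46.9 ± 5.65 in young and 46.6 ± 3.14 in old hearts (log2 difference -0.01, exact permutation p = 1.0). Its sign turned without young 2 (0.09) and without old 3 (0.05). Kcnd2 relative to Kcnd3 was 0.118, 0.124 and 0.114 in young and 0.112, 0.13 and 0.17 in old hearts (log2 difference 0.19, exact permutation p = 0.5), and without old 3 the difference was 0.03. The size of each ratio rests on the lengths, as with Kcnd2 above: per kilobase of GENCODE exons the Kcna5 ratio was 2.86 ± 0.329 in young and 5.22 ± 0.972 in old hearts. On that scale the Kcnip2 ratio was 13.1 ± 1.26 and 12.2 ± 2.19 (log2 difference -0.11, exact permutation p = 0.7), again with overlap. Kcnd2 relative to Kcnd3 was 1.94 ± 0.0873 and 2.25 ± 0.479 there, with the same log2 difference of 0.19.

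**Figure D3:**
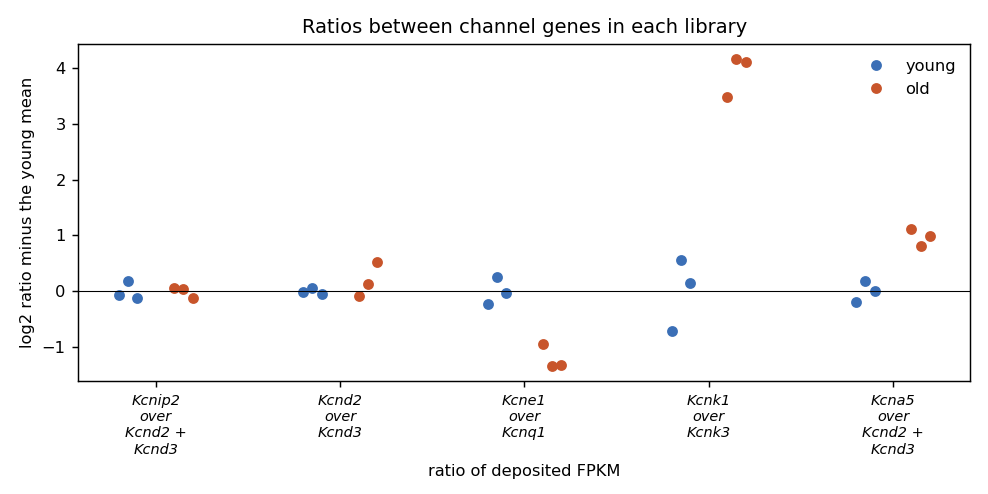
Log2 ratio of deposited FPKM between channel genes in each library, minus the mean of the young libraries, with 3 young hearts in blue and 3 old hearts in orange. The ratios with Kcne1, Kcnk1 and Kcna5 as numerator separate the groups, with log2 differences of -1.21, 3.91 and 0.97, and those of Kcnip2 and Kcnd2 overlap.

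The summed FPKM of the 9 genes overlapped between groups, at 187 ± 5.82 in young and 197 ± 20.7 in the old group (SD, n = 3). As CPM per kilobase of GENCODE exons the sum did not overlap, at 162, 177 and 173 in young and 177, 221 and 186 in old hearts, although young 2 and old 1 were nearly equal. Kcnip2 and Kcnk3 together made up most of it. Kcna5 held 7.21% ± 0.6 of the sum in young and 11.9% ± 1.15 in old hearts, Kcnh2 6.51% ± 0.708 and 9.11% ± 0.388, and Kcnip2 40.5% ± 2.01 and 34.0% ± 2.2, each without overlap. The Kcnk3 share overlapped, at 35.9% ± 1.0 and 35.9% ± 2.01. Shares of one sum are bound to each other, so a larger share of one gene lowers the others.

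Of the 60 other voltage-gated, accessory and two-pore genes in the comparison list, 56 were in the tables, 10 of these had no count in any library, and 21 were tested. Of the 21, 4 rose and 0 fell, or 19.0%, close to the 22.0% of all genes, and their median log2 fold change was 0.11. DESeq2 and limma-voom also called 0 lower, and 3 were lower at an unadjusted edgeR p under 0.05. Among 12 pore-forming genes tested, Kcng2 and Kcns3 rose. Both encode silent subunits that do not form channels alone but modify others. Kcng2 had 119, 137 and 142 CPM in young and 159, 190 and 167 CPM in old hearts, a difference of 0.37 ± 0.10 on the log2 scale (edgeR adjusted p = 0.018) that was not called without young 1 (adjusted p = 0.11). Kcns3 was scarce, with 7, 4 and 2 counts in young and 11, 11 and 15 in old hearts (log2 fold change 1.59 ± 0.46, edgeR adjusted p = 0.029). Its call was lost without old 1, old 3, young 2 or young 3 and with DESeq2. Like Kcnk1, Kcns3 passed the filter on low counts through the old hearts alone.

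Among 5 accessory genes tested, Kcne4 and Kcnip1 rose. Kcne4, a relative of Kcne1 that inhibits Kcnq1 channels, had 39, 40 and 53 counts in young and 78, 83 and 76 in old hearts. Its groups were well apart, and differed by 0.95 ± 0.17 on the log2 scale (edgeR adjusted p = 0.0027), which was called in each of the 18 alternative fits. Kcne1 and Kcne4, both partners of Kcnq1, thus changed in opposite directions while Kcnq1 did not pass the test. Kcnip1, a relative of Kcnip2, had 14, 10 and 11 counts in young and 43, 19 and 31 in old hearts (1.51 ± 0.35, edgeR adjusted p = 0.01), and missed the threshold without young 3 (adjusted p = 0.055). Neuron markers moved with it: Tubb3 was higher and the 5 markers summed to 5.36 to 5.96 CPM in young and 8.06 to 12.1 CPM in old hearts, with Th at 0, and their part in the result was not tested.

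Of 4 two-pore genes tested besides Kcnk1 and Kcnk3, edgeR, DESeq2 and limma-voom each called 0, and the unadjusted edgeR p was under 0.05 for 0 of them. The most abundant were Kcnk6, at 9.45, 9.22 and 11.1 CPM in young and 13.4, 11.1 and 10.7 CPM in old hearts (0.24 ± 0.13, edgeR adjusted p = 0.22), and Kcnk2, a stretch-sensitive channel, at 3.44, 5.18 and 3.33 CPM against 5.84, 3.72 and 7.63 CPM (0.53 ± 0.27, edgeR adjusted p = 0.17). Kcnk2 was called only without old 2 (0.77 ± 0.23, edgeR adjusted p = 0.039).

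Kcna4, the slow transient outward pore, had 20, 16 and 35 counts in young and 17, 7 and 8 in old hearts and did not pass (-1.02 ± 0.40, edgeR adjusted p = 0.09), and was lower without old 1 (-1.53 ± 0.44, edgeR adjusted p = 0.041). Kcna2 was lower without old 3 (-0.83 ± 0.24, edgeR adjusted p = 0.025). With no filter on low counts, Dpp6, a partner of Kcnd channels, was higher with 1, 1 and 0 counts in young and 6, 10 and 7 in old hearts, and so was Kcnq5 with 1, 0 and 2 against 9, 5 and 7. Kcnc2 had 8, 12 and 12 counts in young and 3, 7 and 5 in old hearts, and Kcnc4 had 12, 8 and 10 against 5, 5 and 3. Both missed the filter and lay below the young range in CPM in every old heart. Kcns1, also under the filter, lay above it on 1, 1 and 2 counts against 4, 2 and 2. With no filter, 0 of the other channel genes were called lower. Kcna4, Kcna2, Dpp6, Kcnq5, Kcnc2, Kcnc4 and Kcns1 were chosen after their values were seen.

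**Figure D4:**
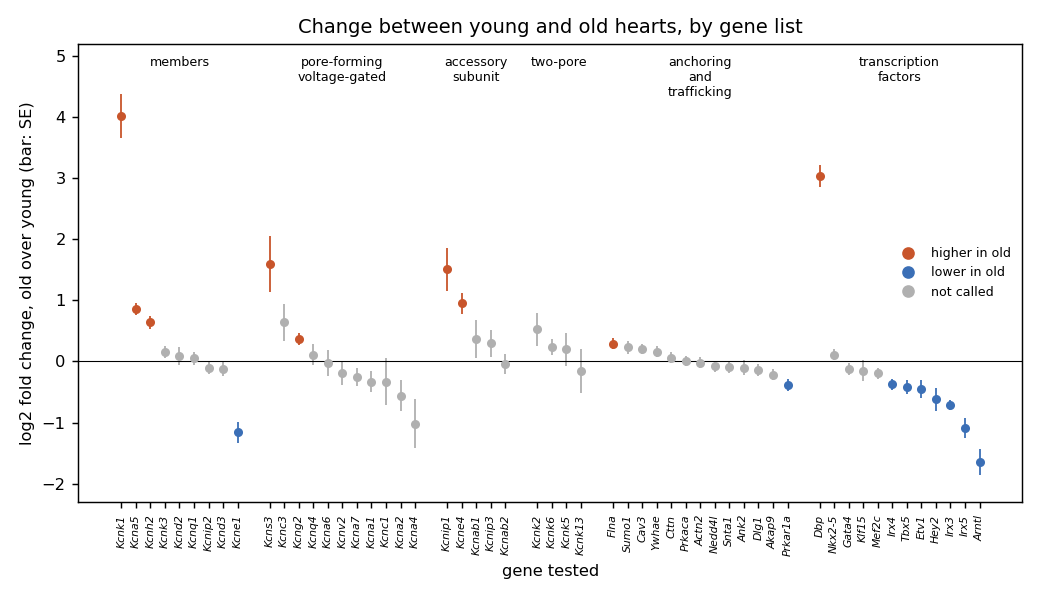
Log2 fold change of old over young hearts with its SE for the 9 genes and for the tested genes of each comparison list that are reported here, coloured by the edgeR call at an adjusted p under 0.05. Kcnk1 at 4.02 has the largest change plotted, and of the transcription factors 7 lie below 0 and are called.

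Of 13 genes that anchor or traffic these channels, Flna rose and Prkar1a fell, and 11 were not called. The called share was 15.4%, below the 22.0% of all genes tested. Flna, a filamin that binds Kcnd2 channels, changed by 0.29 ± 0.09 (edgeR adjusted p = 0.041), a call lost with library size alone, with upper-quartile factors and with all but 1 of the libraries left out. Prkar1a, a regulatory subunit of protein kinase A, changed by -0.39 ± 0.10 (edgeR adjusted p = 0.015), a call lost without young 1 or young 3.

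Of 12 transcription factors with links to these channel genes, 1 was higher and 7 were lower in old hearts, or 66.7% called, against 22.0% of all genes tested (11.4% higher and 10.6% lower). The median log2 fold change was -0.40 against -0.01 over all genes. The list was chosen with earlier results of these data known, so its count is a description of these genes. It fell to 3 lower without old 1 or without young 3 and to 4 without young 1, and was 5 or 6 without each of the other libraries. With DESeq2 it was 5, and on log2 FPKM plus 1 without a filter it was 4. Irx5, a repressor of Kcnd2 that shapes its gradient across the ventricular wall, had 11.6, 10.9 and 10.4 CPM in young and 6.2, 5.44 and 3.81 CPM in old hearts (-1.09 ± 0.17, edgeR adjusted p = 0.0011). Irx3, its neighbour in the same gene cluster, had 43.7, 41.9 and 41.1 CPM against 26.2, 25.7 and 25.7 CPM (-0.71 ± 0.08, edgeR adjusted p = 0.00011). Both were below the young range in every old heart, while Kcnd2 itself overlapped.

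The clock factor Arntl fell (-1.65 ± 0.21), and the clock output factor Dbp was the 1 factor that rose (3.04 ± 0.18). Klf15, which activates Kcnip2, had 59.9, 74.3 and 63.3 CPM in young and 58.5, 77.1 and 42.4 CPM in old hearts and did not pass (-0.15 ± 0.17, edgeR adjusted p = 0.56). Klf15 was named for its link to Kcnip2, not by the rule for list genes. The ventricular factor Irx4 fell (-0.37 ± 0.09), a call lost without old 1 or young 3, and Tbx5 fell (-0.42 ± 0.12), a call lost without old 1, old 3, young 1 or young 3. The other called factors, Hey2 (-0.62 ± 0.19) and Etv1 (-0.45 ± 0.14), were named after their values were seen, and DESeq2 called neither. The Hey2 call was lost on leaving out any library but old 3, and the Etv1 call on leaving out any but old 2.

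The conduction system markers, which include cells rich in some of these channels, summed to 49.2 to 51.7 CPM in young and 57.9 to 71.4 CPM in old hearts. Of its 5 tested genes 1 rose (Tbx3) and 1 fell (Gja5), the pacemaker channel gene Hcn4 was not called (0.25 ± 0.15), and Isl1 had 1 count in all. The atrial list fell from 383 to 449 CPM in young to 106 to 176 CPM in old hearts with Nppa (-2.32 ± 0.23), whereas Dkk3 and Stard10 of that list rose. The part of either list in the 4 channel calls was not tested.

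For each called channel gene, the 3 genes of most similar profile were taken by the root mean square difference in centred log2 CPM over the 6 libraries, among 12378 other genes. Kcna5 was closest to Midn (0.0303), Jmjd6 (0.0475) and Tcim (0.0489). Kcnh2 was closest to Akr1b8 (0.0392), Letm1 (0.0396) and Anks1 (0.0531). Kcne1 was closest to Pik3cg (0.088), Fan1 (0.0904) and Fbxo32 (0.125). Kcnk1 had no gene as close: its nearest were the stress-responsive factor Atf3 (0.364), Fosb (0.452) and Amtn (0.47). Like Kcnk1, Atf3 was lowest in young 1 (4.61 CPM against 18.7 and 16.6) and highest in old 2 (242 CPM against 191 and 210). Amtn had the same extremes, while Fosb was lowest in young 1 but also lowest in old 2 (20.7 CPM against 27.8 and 28.2). The order of Kcnk1 among young hearts rests on 4, 9 and 8 counts. That of Amtn rests on 0.0781, 0.439 and 0.232 CPM in young 1 to 3, where 1 count is about 0.084 CPM. Over 6 libraries in 2 groups such likeness mostly reflects the difference between the groups.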

How the data were processed

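RNA from 6 mouse hearts was sequenced after mirVana extraction and TruSeq Stranded mRNA library preparation, per the labels' protocols. The authors deposited raw counts per gene. Their deposited FPKM values equal these counts over a gene length and the library total, and all 12 per-sample files equalled the series tables. The submitters' processing notes name the GRCm39 build and HISAT2, HTSeq, StringTie, Cufflinks, Bowtie2, Trimmomatic and DESeq. Roles, versions and strand setting were not stated there or in the labels. In the GENCODE annotation used here, exons of Kcnd3, Kcnq1, Kcnk1 and Kcnk3 overlap exons of opposite-strand genes (Kcnd3os, Kcnq1ot1, Gm45875 and Gm9899), whose reads cannot be told apart without that setting.

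Old and young libraries (3 each, grouped by title) were compared with edgeR 4.0.16 in R 4.3.3 by the quasi-likelihood F test on counts after filterByExpr and TMM, with no covariate and Benjamini-Hochberg adjustment over 12893 genes at 0.05. The SE is the fold change divided by the root of F. Totals of 11295280 to 12514005 counts set the precision. Ratios were tested with exact permutation. On counts simulated for this comparison over 12803 genes, the test found 52% of 1.5-fold changes and 88% of 2-fold changes. It found 100% of 3-fold and 5-fold changes, and 7.14% of its calls were false. Fewer genes were changed in the simulation than were called in the deposited counts, and these shares depend on how many genes change. They hold for the simulated counts, and those for the deposited counts were not tested.

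Alternatives were scaling by library size, upper-quartile or RLE factors, other count filters, a replicate block, omission of each library, omission of the 10 most abundant genes, limma-voom and limma (3.58.1) on log2 FPKM with pseudocounts of 1 and 0.1, and DESeq2 1.42.0. Ratios per GENCODE exon length, and counts of calls per list under these alternatives, were added after seeing the data. The members and lists were chosen with earlier results of these data known. Named are the 9 members, called list genes (at most 6 per list, ranked by p, or the 2 of highest level if a list had no call) and 3 nearest profiles per called member, among genes with a mean CPM of at least 1. Klf15, and the genes said to be chosen after their values were seen, fall outside this rule. Predicted genes and unnamed Riken clones were left out of the profiles. Some genes that the lists hold are not reported here.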

Additional observations from a re-analysis of the deposited data

How the results depend on the processing

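Kcna5, Kcnh2 and Kcne1 were called in the same direction in each of the 18 alternative fits, and Kcnk1 in each of the 16 that tested it. It was left out, like Kcnd2, where genes needed a mean FPKM of at least 1, so that 3 of the 9 genes were called there. The 5 other members were called in none. The log2 fold change of Kcnk1 was 1.24 on log2 FPKM plus 1. Of the 2835 genes called over the whole table, 51.7% were higher in old hearts. This share was 32.7% when scaled by library size alone, 35.1% on FPKM and 40.2% with upper-quartile factors. With a library left out, 1552 (without young 3) to 3041 genes were called, and 1557 without young 1. Among the other channel genes, 2 to 5 were called and 2 to 5 rose with a library left out (2 without young 3), 0 to 1 fell (1 without old 1 or old 3), and 2 were called and rose on FPKM with the filter, with either pseudocount. The ratio of Kcnip2 to the sum of Kcnd2 and Kcnd3 had log2 differences from -0.07 to 0.09 with a library left out. The labels do not say whether equal replicate numbers pair the samples. Correlations of deviations from the group means were 0.08, 0.07 and 0.02 for equal numbers and -0.15 to 0.08 for unequal ones. The highest of the latter joined young 3 and old 2. With 3 libraries in each group, these correlations cannot decide whether the numbers pair the samples. With the replicate block 2734 genes and 4 of the 9 members were called, and the block changed the call of Etv1 alone among the named list genes (adjusted p = 0.055). At this depth a gene near the young level of Kcnk1 gives fewer than 10 counts a library.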

Other observations

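The length behind the deposited FPKM was far from the annotated exons for other channel genes too. It was 45.4 times the GENCODE exon length for Kcnip4, 6.93 times for Kcna4 and 5.29 times for Kcng3, against 19.1 times for Kcnd2. Levels of these genes relative to others therefore differ between the 2 length scales, while their fold changes between groups do not. The 107 genes with a ratio over 5 are 0.651% of the 16431 genes that have both lengths. The annotation is of an older build than the one named in the submitters' notes, and the cause of the long lengths was not tested. These 3 genes were chosen after their values were seen.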
